A study of Mus musculus with 21 samples.

Results

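Chromosomes 7, 11 and 17 are 3 of the more gene-dense chromosomes of the mouse, and their DNA content was followed in 21 liver tumours. Every array position that is not a control and whose listed location starts with chromosome 7, 11 or 17 was taken, whatever its value. This gave 15482 of 96471 positions (16.05%), with 5986 on chromosome 7, 5684 on chromosome 11 and 3812 on chromosome 17. In windows of 1 Mb with at least 5 positions on every array, they filled 310 of 2223 windows (123, 107 and 80 on the 3 chromosomes). By the RefSeq annotation of GRCm38, chromosome 7 carried 13.96 protein-coding genes per Mb, the most of the 19 autosomes. Chromosome 11 carried 13.2 and ranked second, and chromosome 17 carried 11.1, just behind chromosome 19 with 11.5.

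All tumours came from livers of C57BL/6 mice on CD-HFD, a diet high in fat and lacking choline, for 12 months. The diet causes steatohepatitis, and only part of the animals developed liver tumours. The CD-HFD group had the diet alone and held 9 tumours of 7 mice. The anti-PD1 group had the diet and 8 weeks of antibody against PD-1, an inhibitory receptor of T cells. It held 12 tumours of 7 mice. Ages and sex were not in the labels, and the leading number of a label was read as the mouse, so that 2 CD-HFD and 3 anti-PD1 mice gave more than 1 tumour (lesion). DNA of formalin-fixed tissue carried the Cy3 dye on every array and was set against 1 common reference in Cy5, which the labels call a pool of liver tails of the same strain. No array had the dyes exchanged, so a dye effect and a difference from the reference cannot be told apart.

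In array comparative genomic hybridisation, tumour and reference DNA compete for the same oligonucleotides, and the log2 ratio of the dyes follows the copy number of each region. A tumour that has lost 1 copy of a chromosome in all of its cells reads below the rest of its genome. In bulk tissue, the share of cells that carry a change and the number of copies per cell cannot be told apart. Each array was centred on its own median, so a value of 0 stands for that median and says nothing of absolute copies. Gene-dense mammalian chromosomes are also rich in G and C, and hybridisation ratios can follow base composition. The 50 kb around the positions held 44.7% G and C on chromosome 7, 45.4% on chromosome 11 and 44.6% on chromosome 17. These were the 3 highest means of the 19 autosomes, as matched to GRCm38. The part that base composition had in the ratios below was not tested apart from the correction given.

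Array quality and array design touch the values that follow. The 3 slides carried 2 designs, with slide 1 on one and slides 2 and 3 on the other, and 2227 of the 15482 positions were on both. Slides 1 and 2 each held 4 tumours of each group, and slide 3 held 4 anti-PD1 tumours and 1 CD-HFD tumour. The noise of an array, from differences between neighbouring positions, was 0.41 to 0.68 on the log2 scale (median 0.51). In the tumour channel a median of 96.5% of spots were well above background. The lowest were lesion 1 of mouse 608 with 65.0% and lesion 1 of mouse 1770 with 82.1%, called the dim arrays below. No pair of arrays shared identical values, and the highest correlation over positions between any pair was 0.874. The number of arrays and of mice limits the precision of every value.

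Oligonucleotides from the lowest and the highest window of these chromosomes show what the extremes look like at the level of single positions. They are printed 5′ to 3′ as the array files give them, with G and C in capitals, and positions are in mm9.
chr7, window with the lowest mean, chr7:149676978-149677037: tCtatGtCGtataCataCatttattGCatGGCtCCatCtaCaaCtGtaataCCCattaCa
chr11, window with the lowest mean, chr11:116615844-116615892: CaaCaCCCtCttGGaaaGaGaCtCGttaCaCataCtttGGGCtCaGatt
chr17, window with the lowest mean, chr17:56889848-56889907: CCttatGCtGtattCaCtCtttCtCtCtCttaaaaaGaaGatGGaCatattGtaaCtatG
chr11, window with the highest mean, chr11:29738422-29738481: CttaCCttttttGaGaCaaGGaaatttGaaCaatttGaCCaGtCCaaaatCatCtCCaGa
chr17, window with the highest mean, chr17:55563968-55564027: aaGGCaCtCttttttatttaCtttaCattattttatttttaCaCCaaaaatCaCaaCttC

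The chromosome 7 oligonucleotide lies in an exon of Lsp1, a leukocyte protein that binds actin. It read −0.94, −0.42 and −0.072 in the lowest, median and highest tumour, below 0 in 21 of 21. The low oligonucleotide of chromosome 11, in an intron of BC018473, had a median of −0.24 and was below 0 in 17 tumours. That of chromosome 17, between genes, had a median of −0.35 and was below 0 in 18. The high oligonucleotide of chromosome 11 lies in a coding exon of Eml6, a microtubule-associated protein, and had a median of 0.66, above 0 in every tumour. That of chromosome 17, between genes, had a median of 0.97 and was also above 0 in all 21. The G and C content of the oligonucleotides themselves was 35.0%, 44.9% and 33.3% for the 3 low ones and 35.0% and 23.3% for the 2 high ones. The DNA around them differed more, with 52.1%, 46.8% and 54.0% in the 50 kb around the low ones against 41.4% and 39.96% around the high ones. On chromosome 7 no oligonucleotide of the highest window is shown, where only 2 positions were on both designs. The one outside an untranslated region, in a coding exon of Atp10a, went against its window, with −0.77, −0.34 and −0.057 in the lowest, median and highest tumour, below 0 in 21 of 21.

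Chromosomes 7 and 11 read below the middle of the array in most tumours, and chromosome 17 did so less uniformly. On chromosome 7 the mean log2 ratio of the lowest, median and highest tumour was −0.24, −0.090 and 0.056 in the anti-PD1 group and −0.16, −0.098 and 0.038 in the CD-HFD group. It was below 0 in 19 of 21 tumours and in the mean of all 14 mice. On chromosome 11 the values were −0.22, −0.10 and 0.069 with anti-PD1 and −0.14, −0.056 and 0.078 on CD-HFD, with 17 tumours and 14 mice below 0. Chromosome 17 had −0.16, −0.060 and 0.11 with anti-PD1 and −0.099, −0.013 and 0.13 on CD-HFD, with 13 tumours and 11 mice below 0. The ranges of the groups overlapped on all 3 chromosomes.

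In limma, with the mouse as a random block and Benjamini-Hochberg adjustment over 20 chromosomes, 3 chromosomes (15.0%) were called low. These were chromosomes 7 and 11 and, from outside this part, chromosome 4, at −0.070 (standard error 0.020, adjusted p = 0.0046, limma). Chromosome 7 was the lowest of the 20, at −0.083 (standard error 0.018, adjusted p = 0.000321, limma). Chromosome 11 was at −0.065 (standard error 0.020, adjusted p = 0.0054, limma). Chromosome 17 was at −0.020, the 7th lowest of the 20, and did not pass (standard error 0.019, adjusted p = 0.372, limma). It passed with the chromosome median in place of the mean (−0.041, adjusted p = 0.042, limma), with the loess table (−0.059, adjusted p = 0.0256) and with normexp (−0.051, adjusted p = 0.00103). The mean over mice was −0.081 ± 0.037 (SD, n = 14 mice) on chromosome 7, −0.067 ± 0.044 on chromosome 11 and −0.024 ± 0.058 on chromosome 17. Chromosome 17 thus had the largest spread between mice, larger than its own mean.

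Against the other 16 autosomes, the 3 chromosomes together lay lower in every mouse. Their joint mean was −0.062 ± 0.034 (SD, n = 14 mice), and that of the other autosomes was 0.029 ± 0.0089. The difference was −0.091 ± 0.034, below 0 in 14 of 14 mice and 19 of 21 tumours (two-sided exact sign-flip permutation test, p = 0.000122, the smallest that 14 mice allow). The 2 tumours above 0 were those on the dim arrays, which were also the only tumours with each of chromosomes 7, 11 and 17 above 0. These chromosomes were chosen with earlier results of these data known. The p of this test is therefore a description, as are those against the other autosomes below.

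The offset was smaller after correction for base composition. When each array was corrected for G and C content (a cubic curve in the content of the oligonucleotide and of the 50 kb around it, fitted over all autosomes, these 3 included), chromosome 7 moved to −0.039 (adjusted p = 0.084), chromosome 11 to 0.0066 (adjusted p = 0.74) and chromosome 17 to 0.032 (adjusted p = 0.14, all limma). Chromosome 7 stayed below 0 in 18 of 21 tumours, chromosome 11 in 6 and chromosome 17 in 5. The difference from the other autosomes shrank to −0.021 ± 0.019 (SD, n = 14 mice), still below 0 in 13 of 14 mice (exact sign-flip permutation test, p = 0.00195). The correction takes out any real change that runs along with base composition too.

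**Figure D1:**
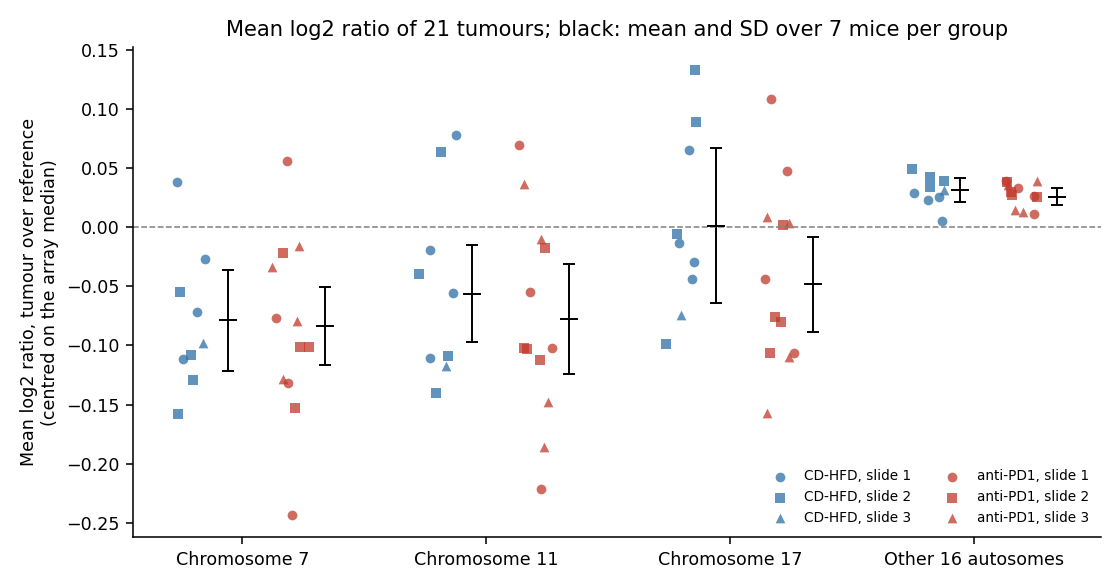
Mean log2 ratio of tumour over reference DNA (vertical axis, centred on the array median) on chromosomes 7, 11 and 17 and on the other autosomes, 1 point per tumour (colour for group, shape for slide), with black bars for the mean and SD over the 7 mice of each group. Chromosome 7 sits below 0 in 19 tumours, chromosome 11 in 17 and chromosome 17 in 13. The value of the other autosomes is 1 mean over all their positions, which make up most of the array and so lie near its median. Some single chromosomes among them spread more widely, as chromosome 12 did from −0.42 to 0.17.

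Within the chromosomes the low ratios came as a patchwork and not as an even shift. Of the 310 windows, 127 were called low in limma (41.0%, against 22.0% of all 2223 windows and 359 of 1797 on the other autosomes), and 95 were called high (30.6%, against 46.2% of all windows). By chromosome, 54 low and 34 high windows lay on chromosome 7, 48 and 27 on chromosome 11 and 25 and 34 on chromosome 17, so that chromosome 17 held more high than low windows. The low share was 43.9%, 44.9% and 31.25% on chromosomes 7, 11 and 17. Among the other autosomes, it was 40.9% on chromosome 4 and 35.1% on chromosome 9. After the correction for base composition 86 windows were low (27.7%) and 75 high. Of the 127 windows low before it, 58 stayed low and 12 turned high. Over all 2223 windows 474 were low after it (21.3%) and 639 high. Of the 489 of these low before it, 237 stayed low and 25 turned high.

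The level of a window fell with the G and C content of its surroundings. Over the 310 windows Pearson's r between the 2 was −0.76, and it was −0.76, −0.79 and −0.74 within chromosomes 7, 11 and 17. Windows of a chromosome are neighbours on the same arrays, so this is a description and not a test. Of the 47 windows with under 40% G and C, 4.26% were called low, and their median level was 0.14. The share rose step by step to 47.4% between 44 and 46%, 65.9% between 46 and 48%, and 91.7% of the 48 windows with at least 48%, whose median level was −0.23. On the other autosomes the share was 5.07% in the lowest class and 82.6% in the highest. Between 44 and 46% G and C it was 25.95%, against 47.4% here, a difference that was not tested.

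**Figure D2:**
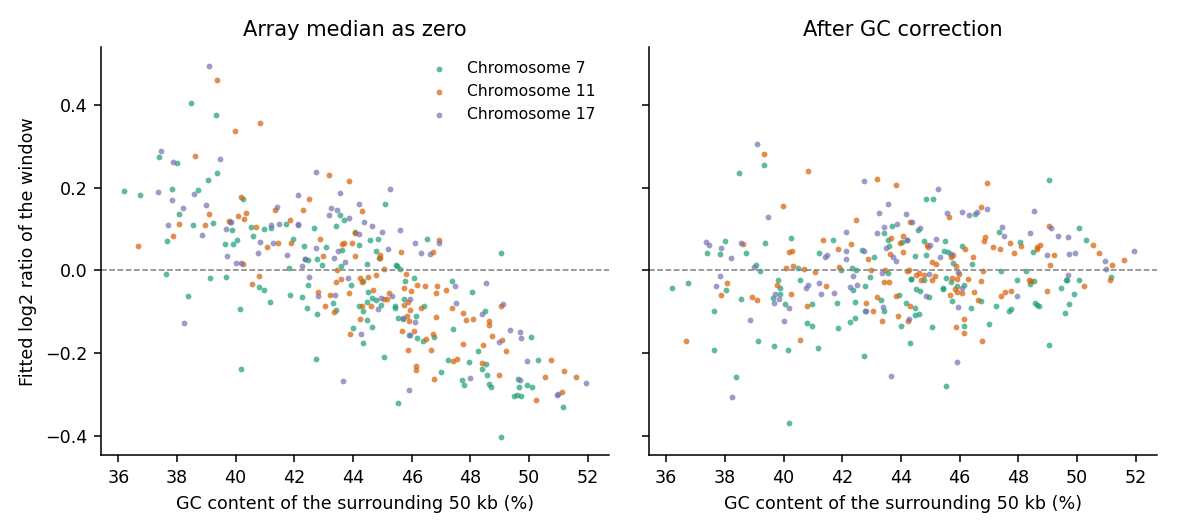
Level of each 1-Mb window (vertical axis, fitted log2 ratio over the 21 tumours) against the G and C content of the surrounding 50 kb in percent (horizontal axis), coloured by chromosome, before (left) and after (right) the correction for base composition. Before it, the windows with at least 48% G and C lie almost all below 0, and those under 40% mostly above it.

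The lowest and highest windows of each chromosome kept their sign in most tumours. The lowest window of chromosome 7, from 149000001 to 150000000, holds the imprinted pair Igf2, a fetal growth factor, and H19, a non-coding RNA, together with Ins2, Ctsd and Lsp1. It read −0.69, −0.41 and −0.16 in the lowest, median and highest anti-PD1 tumour and −0.61, −0.42 and −0.25 in the CD-HFD tumours. All 21 tumours were below 0 and 19 were at or below −0.2. The mean was −0.39 ± 0.092 (SD, n = 14 mice), the fitted level −0.40 (standard error 0.031, adjusted p = 5.92e-11, limma), and it was still called low after the correction, at −0.18. The adjusted p covers 2223 windows.

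On chromosome 11 the lowest window, from 116000001 to 117000000, includes Srsf2, a splicing factor. It had −0.54, −0.41 and 0.053 with anti-PD1 and −0.55, −0.30 and −0.023 on CD-HFD, with 20 tumours below 0 and a mean of −0.32 ± 0.10 (SD, n = 14 mice). After the correction its level was −0.037, no longer called. The lowest window of chromosome 17, from 56000001 to 57000000, includes Chaf1a, a histone chaperone of DNA replication. It had −0.49, −0.38 and −0.017 with anti-PD1 and −0.56, −0.28 and −0.068 on CD-HFD, all 21 tumours below 0, with a mean of −0.31 ± 0.12 and a corrected level of 0.0040. Of the 3 lowest windows, then, only that of Igf2 and H19 kept its call.

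The window just before it on chromosome 17, from 55000001 to 56000000, was the highest of that chromosome, so that the lowest and highest megabases were neighbours. It names St6gal2, a sialyltransferase, and read 0.22, 0.51 and 0.77 with anti-PD1 and 0.19, 0.46 and 0.81 on CD-HFD, with a mean of 0.51 ± 0.17 (SD, n = 14 mice) and a corrected level of 0.31. Its surroundings held 39.1% G and C, against 51.0% in the lowest window. The highest window of chromosome 11, from 29000001 to 30000000 with Eml6 and Pnpt1, was the most even. It lay between 0.31 and 0.55 in all 21 tumours, with a mean of 0.46 ± 0.069 and a corrected level of 0.28. That of chromosome 7, from 66000001 to 67000000 with Ube3a and Atp10a, read −0.055, 0.45 and 0.63 with anti-PD1 and 0.21, 0.32 and 0.72 on CD-HFD. Its mean was 0.41 ± 0.13, and the value below 0 came from lesion 6 of mouse 608. The window held only 8 to 9 positions per array, with means of 0.23 on slide 1 and 0.51 on slides 2 and 3.

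**Figure D3:**
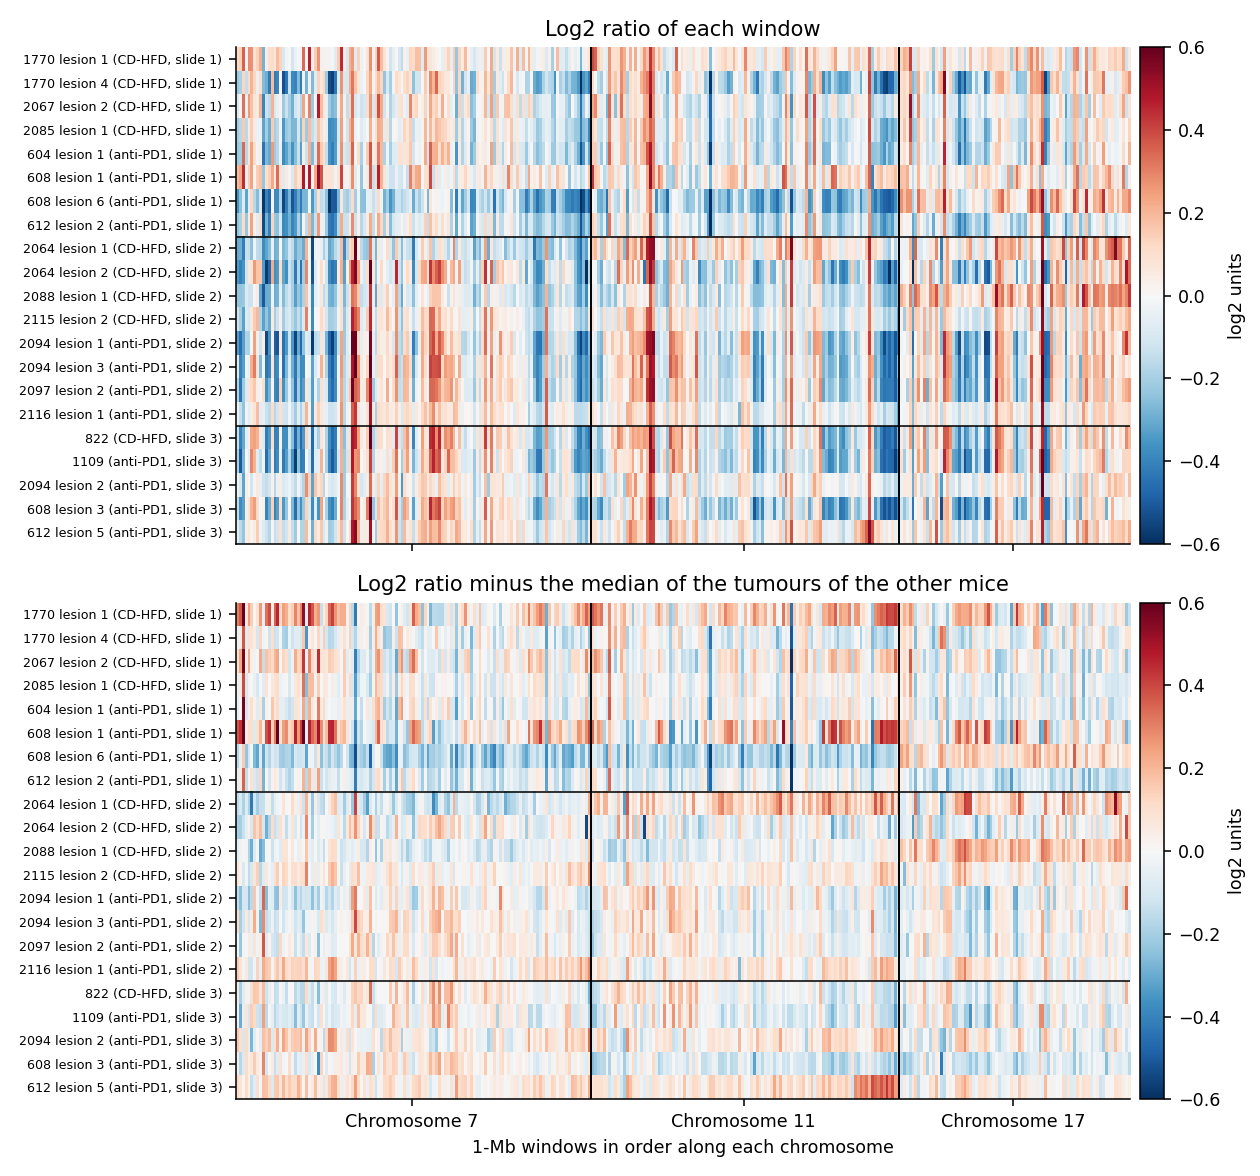
Log2 ratio of every 1-Mb window along chromosomes 7, 11 and 17 (horizontal axis, window order) in each of the 21 tumours (rows, with group and slide), blue for low and red for high, as measured (top) and minus the median of the tumours of the other mice (bottom). In the top panel the same vertical stripes run through most rows, and in the bottom panel lesion 6 of mouse 608 is lower along the whole of chromosomes 7 and 11, by −0.18 on each.

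How far the low ratios were common to the tumours was counted window by window, with a value of at most −0.2 called low in a single tumour. Of the 310 windows, 123 were low in no tumour, 78 in 1 to 3 tumours, 56 in 4 to 10 and 53 in 11 or more. The last class made up 17.1% of the windows, against 6.51% on the other autosomes. Chromosome 7 held 26 of the 53, chromosome 11 held 18 and chromosome 17 held 9. No window was low in all 21 tumours, and the most shared were low in 19, 15 and 17 tumours on chromosomes 7, 11 and 17.

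**Figure D4:**
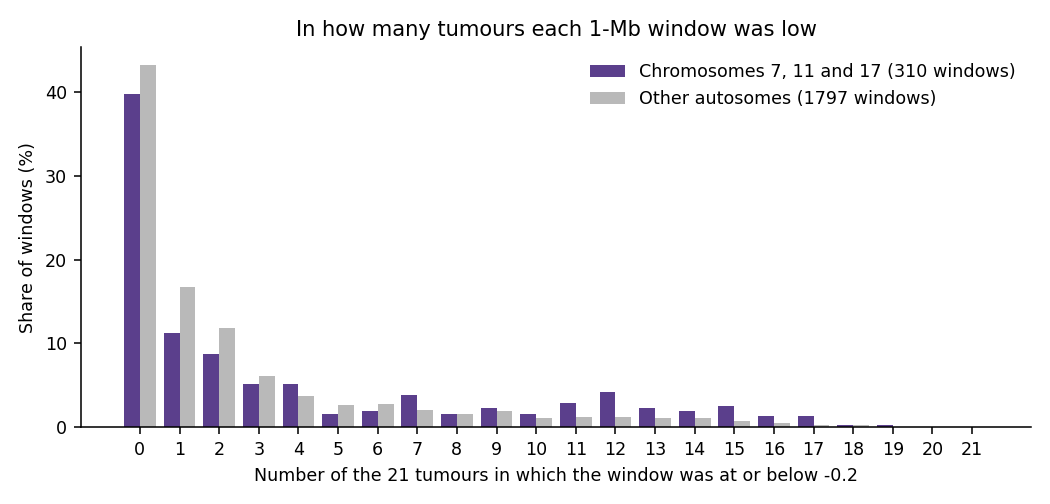
Share of 1-Mb windows in percent (vertical axis) by the number of the 21 tumours in which the window was at or below −0.2 (horizontal axis), for chromosomes 7, 11 and 17 and for the other autosomes. On these 3 chromosomes 17.1% of windows were low in 11 or more tumours, against 6.51% on the other autosomes.

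The widely shared windows held most of the low values. There were 1218 low values among 6510 window values (18.7%), and 59.0% of them lay in windows low in 11 or more tumours, against 35.7% on the other autosomes. Only 11.2% lay in windows low in 1 to 3 tumours, against 23.9%. Of the 1218 low values, 679 (55.7%) were also at or below −0.2 in the median of the tumours of other mice, and another 481 were between −0.2 and 0 there. The remaining 58 fell where the other mice were at or above 0, and 18 of these came from lesion 6 of mouse 608. Of the 35 windows low in exactly 1 tumour, 21 were low in that same lesion and 4 in lesion 3 of the same mouse.

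Single tumours differed widely in how much of the 3 chromosomes was low. The share of low windows was 2.26, 20.97 and 42.6% in the lowest, median and highest tumour. The lowest were lesion 1 of mouse 1770 with 7 windows, lesion 1 of mouse 2116 with 9 and lesion 1 of mouse 608 with 11, and the highest was lesion 6 of mouse 608 with 132. Over mice the share was 18.0 ± 6.82% (SD, n = 14) against 10.6% on the other autosomes, higher in 13 of 14 mice (difference 7.34 percentage points, exact sign-flip permutation test, p = 0.000366). After the correction for base composition the share was 6.47%, and the difference turned to −2.16 points (exact p = 0.00134). Among the low windows of a mouse, 60.5 ± 12.9% were also low in the median of the others, against 38.7% on the other autosomes, higher in 14 of 14 mice (exact sign-flip permutation test, p = 0.000122). After the correction this share was 32.8%, and its difference from the other autosomes was 5.84 points (exact p = 0.129).

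**Figure D5:**
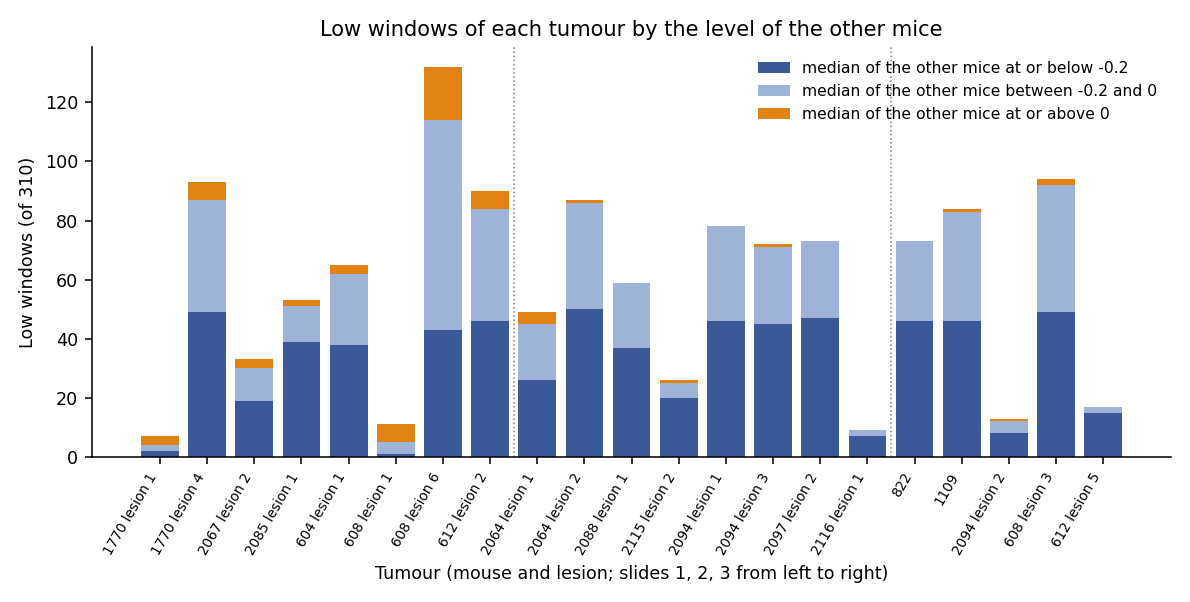
Number of the 310 windows at or below −0.2 in each tumour (vertical axis), split by the median of the tumours of other mice in the same window (at or below −0.2, between −0.2 and 0, at or above 0). Lesion 6 of mouse 608 has 132 low windows, 18 of them where the others were at or above 0, and the dim arrays and lesion 1 of mouse 2116 have 7 to 11.

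The common part was also measured over all values, low and high. For each tumour, the median profile of the tumours of other mice was subtracted, and the share of the mean square that this removed was taken. A value below 0 means that subtraction left more than there was. The share was −82.4, 59.1 and 81.3% in the lowest, median and highest tumour, with a mean of 50.1 ± 26.03% (SD, n = 14 mice). The other autosomes had 48.5%, and the difference of 1.60 points did not pass (exact sign-flip permutation test, p = 0.642). Of the mean square, 29.9% lay in differences between neighbouring windows that the profile did not hold, and 20.02% was the rest. The noise between neighbouring positions alone would give 36.9%.

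The smallest common share went with the flattest profile. The value of −82.4% was that of lesion 1 of mouse 608, whose slope on the profile of the others was 0.11, where the highest slope of any tumour was 1.42. Without the 2 dim arrays the lowest share was 15.4% and the median 60.5%. If each tumour is allowed its own amplitude and level, which the squared correlation does, the common share was 63.6%, against 55.1% on the other autosomes, higher in 14 of 14 mice (exact sign-flip permutation test, p = 0.000122).

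The profile differed in part between the array designs. Pearson's r between the profiles of the 2 designs was 0.67 over the 310 windows. Tumours on the same design had a median r of 0.80 (100 pairs), tumours on different designs 0.47 (101 pairs), and lesions of the same mouse 0.50 (9 pairs). Windows with a median at or below −0.2 numbered 52 on slide 1 and 63 on slides 2 and 3, and 34 were in both sets. With a profile made only from other mice on the same design, the common share was 61.5 ± 22.6% (SD, n = 14 mice), with a median tumour of 77.4%. The share of low windows also low in the others was then 69.1%.

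What single tumours carried beyond the profile of the others was divided into segments of at least 5 windows. With a mean of at least 0.2 in size as the limit, these chromosomes held no segment of loss in any of the 21 tumours. On the other autosomes 33 segments of loss were found in 14 tumours, covering 3.61 ± 4.85% (SD, n = 14 mice), and 9 of the 14 mice had any there. With a count of 0 here the difference can only run one way, so no test of it is given. With another background correction, normexp, the difference was −0.412 points and on positions of both designs alone −2.72 points. With the profile from the same design, 1 loss appeared, on chromosome 7 from 11000001 to 16000000 in lesion 1 of mouse 2088, at −0.22. A loss of under 5 windows, or in a small part of the cells, was not detectable this way. Before subtraction of the profile, losses covered 5.44 ± 6.40% of the 3 chromosomes, in 22 segments of 10 tumours, and up to 47.1% of a single tumour. On the other autosomes they covered a similar 5.20 ± 5.45%, in 63 segments of 17 tumours. What is left after subtraction was smaller here than elsewhere too, with a root mean square of 0.12 against 0.15 on the other autosomes, lower in 14 of 14 mice (exact sign-flip permutation test, p = 0.000122). The root mean square was already smaller here before subtraction, at 0.19 against 0.22, lower in 12 of 14 mice.

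Gains beyond the profile were found in 5 segments of 3 tumours, covering 1.23 ± 2.66% (SD, n = 14 mice). The other autosomes had 27 segments in 12 tumours, covering 3.66% (exact sign-flip permutation test of the difference, p = 0.0664). In lesion 1 of mouse 608, chromosome 7 from 3000001 to 57000000 was at 0.27 and chromosome 11 from 94000001 to 122000000 at 0.25. In lesion 1 of mouse 1770, the same 54 Mb of chromosome 7 was at 0.23 and chromosome 11 from 113000001 to 122000000 at 0.36. These were the 2 dim arrays, and in all 4 segments the others lay between −0.27 and −0.13 while the tumour itself read 0.089 to 0.14. After the correction for base composition the 4 were at 0.17, 0.071, 0.14 and 0.15 beyond the profile, in the order given. All of these were under the limit of 0.2. The fifth segment, chromosome 11 from 105000001 to 122000000 in lesion 5 of mouse 612, was at 0.31 beyond the profile, at 0.16 in itself and at 0.25 after the correction for base composition. Lesion 2 of the same mouse had no such segment. With the profile from the same design, the gain of chromosome 7 in lesion 1 of mouse 1770 was not found, and further gains appeared on arrays that are not dim. These were chromosome 17 from 23000001 to 30000000 in lesion 1 of mouse 2064 (0.33), chromosome 17 from 24000001 to 36000000 in lesion 1 of mouse 2088 (0.29) and chromosome 11 from 113000001 to 122000000 in lesion 1 of mouse 2116 (0.21).

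At a limit of 0.1, which also takes in the 5 gains described above, there were 4 losses in 3 tumours and 12 gains in 8. Some ran along whole chromosomes and others along parts. These held 5.31 and 8.00% of the window values, against 12.02 and 10.2% on the other autosomes, with 75 losses in 19 tumours and 59 gains in 17. Lesion 6 of mouse 608 was lower than the profile along all of chromosome 7, by −0.18, and along all of chromosome 11, by −0.18, and higher along all of chromosome 17, by 0.11. After the correction for base composition these were −0.15, −0.15 and 0.14. The other lesions of that mouse did not share this pattern. Lesion 3 lay at 0.030, −0.097 and −0.095 beyond the profile on the 3 chromosomes, and lesion 1, on a dim array, at 0.11, 0.086 and 0.037. Lesion 1 of mouse 2088 had all of chromosome 17 at 0.16 beyond the profile, and lesion 1 of mouse 2064 had all of chromosome 11 at 0.13, while lesion 2 of mouse 612 had chromosome 17 at −0.11. Lesion 1 of mouse 2094 had the part of chromosome 7 from 3000001 to 55000000 at −0.11. Each of these came from 1 array.

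Compared with the other autosomes, chromosomes 17, 7 and 11 varied little from tumour to tumour once the profile was subtracted. The SD over tumours of the chromosome's mean beyond the profile was 0.064, 0.065 and 0.074, which were among the 4 smallest of 19. On the chromosome with the largest spread, chromosome 12, it was 0.16.

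Lesions of 1 mouse were mostly not alike on these chromosomes beyond what all tumours shared. Of the 9 pairs, lesions 1 and 3 of mouse 2094, both on slide 2, had r = 0.94 over windows and 0.73 beyond the profile. The other 8 pairs had r between 0.036 and 0.69 over windows and between −0.41 and 0.18 beyond the profile. Of these, 5 had their lesions on different slides, which differ in design for 3 of them.

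Genes with known roles in growth, tumour suppression, liver metabolism, immunity and imprinting were placed in the window that holds the middle of the positions named for them. Of the genes listed, 95 could be placed, in 63 windows. Windows called low in limma held 67 of them, windows called high 10, and 18 lay in windows with no call. Of all 310 windows, 41.0% were low and 30.6% high. The median level of the genes was −0.15, where that of the 310 windows was −0.025 and that of all 2223 windows 0.056. Genes of a list share windows, so these are counts of genes and not of independent regions. The lists filled 15, 18, 21, 17 and 8 windows, in the order in which they follow. After the correction for base composition 27 of the 67 were still in a low window, and 25 of the 95 were in a high window. Of the 310 windows, 27.7% were low and 24.2% high then. These shares also stand beside the counts of each list below. None of the genes lay in a window that differed between the groups.

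Among growth factors and oncogenes 14 of 19 lay in low windows, 3 in high windows and 2 in neither, with a median level of −0.15. After the correction 2 of the 14 kept a low call, and 8 of the 19 lay in high windows. Igf2 was the lowest, in the window described above. Ccnd1, which encodes cyclin D1, and Fgf15, the gut hormone that restrains bile acid synthesis, share a window with one another at the end of chromosome 7 (152000001 to 153000000). It read −0.49, −0.27 and 0.17 in anti-PD1 tumours and −0.44, −0.13 and 0.089 in CD-HFD tumours. With a mean of −0.17 ± 0.16 (SD, n = 14 mice) it was among the most variable of the list, and it turned from low to high, at 0.10, after the correction. Egfr, the receptor of epidermal growth factor (chromosome 11, named positions 16656658 to 16813015), was the highest, at 0.10 ± 0.089. It was called high and lost its call after the correction (0.0041).

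Of 19 tumour suppressors and genome stability genes, 8 lay in low windows, 5 in high windows and 6 in neither, with a median level of −0.056, the least low of the lists. After the correction 4 of the 8 kept a low call, and 8 of the 19 lay in high windows. The window of Trp53, which encodes p53 (chromosome 11, named positions 69395366 to 69404744), was the lowest. It read −0.39, −0.31 and −0.074 with anti-PD1 and −0.42, −0.25 and −0.066 on CD-HFD, below 0 in 21 of 21 tumours. The mean was −0.26 ± 0.055 (SD, n = 14 mice), and the call remained after the correction, at −0.049. No tumour went 0.2 or more below the profile of the others there, and the lowest, lesion 4 of mouse 1770, was at −0.15 relative to it. Nf1, a brake on RAS signalling (79160565 to 79394895 on the same chromosome), stood on the other side. It read 0.062, 0.24 and 0.33 with anti-PD1 and 0.15, 0.22 and 0.30 on CD-HFD, with a mean of 0.23 ± 0.031 and a corrected level of 0.22. The most variable were Cdkn1a, the p21 cell cycle inhibitor on chromosome 17, with −0.096 ± 0.15, and Fanci, a gene of DNA crosslink repair on chromosome 7, with −0.19 ± 0.14. Cdkn1a had no call (adjusted p = 0.0576, limma), but 11 of 12 alternatives other than leaving out a mouse changed its call or its sign. Windows of 0.5 Mb changed the sign alone (0.078, adjusted p = 0.0954, limma). Cdkn1a was low with, among others, the loess table (adjusted p = 0.00411), normexp (0.00333) and without the dim arrays (0.013), and high after the correction (0.0016). Fanci was called low, with a mean of −0.072 over the tumours of slide 1 and −0.27 over those of slides 2 and 3.

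Liver metabolism and stress genes lay in low windows in 17 of 23 cases, in high windows in none and in windows with no call in 6, with a median level of −0.13. After the correction 6 of the 17 kept a low call, and 7 of the 23 lay in high windows. Hpn, a serine protease of the hepatocyte surface (chromosome 7), was the lowest at −0.29 ± 0.090 (SD, n = 14 mice), with 20 of 21 tumours below 0. Cebpa, a transcription factor of hepatocyte identity on the same chromosome, was the highest at 0.047 ± 0.15. Its window had a mean of −0.14 on slide 1 and 0.15 on slides 2 and 3. Fasn, the fatty acid synthase near the end of chromosome 11, was the most variable at −0.27 ± 0.18, with means of −0.10 and −0.36 on the designs. Hpn and Fasn lost their low calls after the correction, at −0.023 and 0.061.

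The immune list was the lowest as a whole. Of its 25 genes, 21 lay in low windows and 4 in windows with no call, with a median level of −0.22, and 8 of the 21 kept a low call after the correction. Irf3, a transcription factor of the interferon response on chromosome 7, shares its window with Cd37 and was the lowest. It had −0.56, −0.43 and 0.072 with anti-PD1 and −0.56, −0.29 and 0.0074 on CD-HFD, with a mean of −0.34 ± 0.11 (SD, n = 14 mice). In the major histocompatibility complex on chromosome 17, H2-Ab1, Tap1 and Psmb8, genes of antigen presentation, lie in 1 window at −0.27 ± 0.10. The next window, with the cytokine genes Tnf and Lta, was at −0.23 ± 0.15. None of these 3 windows kept its low call after the correction, at −0.016 for Irf3, −0.011 for H2-Ab1 and 0.042 for Tnf.

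Ccl2, a chemokine that draws monocytes (chromosome 11, window 81000001 to 82000000), was the highest and most variable of the immune list, at 0.093 ± 0.29 (SD, n = 14 mice). Its 8 tumours on slide 1 read −0.52 to −0.14 and the 13 tumours on slides 2 and 3 read 0.099 to 0.56, with no overlap. By group they overlapped, since anti-PD1 tumours ran from −0.52 to 0.38 and CD-HFD tumours from −0.36 to 0.56.

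Imprinted genes, expressed from 1 parental copy, lay in low windows in 10 of 13 cases and in high windows in 3, with a median level of −0.13. Of the 10, 9 kept their low call after the correction. The 13 genes lay in 8 windows, so these counts hold some windows more than once. The low ones included the cluster at the end of chromosome 7, where Kcnq1, Cdkn1c and Phlda2 follow Igf2 and H19 at −0.25 ± 0.059 (SD, n = 14 mice). Peg3 and Zim1 near the start of the chromosome were at −0.083 ± 0.048 and Ndn at −0.064 ± 0.090. Ube3a, the ubiquitin ligase lost in Angelman syndrome, was the highest of the list at 0.41 ± 0.13. Its window has few positions and differed between the designs, with means of 0.23 on slide 1 and 0.51 on slides 2 and 3. Airn, the RNA that silences Igf2r on chromosome 17, was at 0.089 ± 0.093, and Grb10, an adaptor of insulin signalling on chromosome 11, at 0.068 ± 0.061.

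The study compared tumours that arose on the diet alone with those of mice also given anti-PD1. On these chromosomes no difference between the groups passed. For anti-PD1 minus CD-HFD, limma gave −0.0059 on chromosome 7 (standard error 0.036, adjusted p = 0.91), −0.029 on chromosome 11 (standard error 0.039, adjusted p = 0.91) and −0.045 on chromosome 17 (standard error 0.038, adjusted p = 0.878). The group means over mice were −0.084 ± 0.033 and −0.079 ± 0.043 on chromosome 7, −0.078 ± 0.046 and −0.057 ± 0.041 on chromosome 11, and −0.048 ± 0.040 and 0.0012 ± 0.065 on chromosome 17 (anti-PD1 first, SD, n = 7 mice each). Each difference was under the larger SD of its groups. Within slide 1 the differences were −0.056, −0.047 and −0.011 on the 3 chromosomes (exact permutation p = 0.1, 0.2 and 0.9, n = 3 and 3 mice). Within slide 2 they were 0.022, −0.014 and −0.097 (exact permutation p = 0.5, 1 and 0.3), where 0.1 is the smallest p that such a comparison allows. Of all chromosomes, 0.0% passed.

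Of the 310 windows, 0 differed between the groups in limma after adjustment over 2223 windows (0.0% of which passed). An unadjusted limma p under 0.05 was found in 4 of the 310 (1.29%), against 20 of all 2223 windows (0.90%). On chromosome 7 the window with the smallest p ran from 58000001 to 59000000, with Nell1 and Ano5, and read −0.15, 0.056 and 0.17 with anti-PD1 and 0.033, 0.12 and 0.26 on CD-HFD (difference −0.10, adjusted p = 0.999, limma). On chromosome 11 it ran from 17000001 to 18000000, with Etaa1 and Ppp3r1, and the difference was −0.099 (adjusted p = 0.999, limma). On chromosome 17 it was the window from 6000001 to 7000000 around Ezr, with −0.051, 0.086 and 0.29 against 0.11, 0.26 and 0.51 (adjusted p = 0.999, limma). In all 3 windows the groups overlapped.

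The shares of low and of gained DNA did not pass either. Low windows made up 19.3 ± 8.12% in anti-PD1 mice and 16.7 ± 5.57% in CD-HFD mice (SD, n = 7 each, exact permutation of mice over 3432 splits, p = 0.506). Gains beyond the profile covered 1.37 ± 2.66% and 1.08 ± 2.87% (exact permutation p = 1), and losses were 0 in both groups. The smallest p this design allows is 0.000583.

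Across the 14 mice, the means of chromosomes 7 and 11 moved together. Pearson's r was 0.738 (permutation p = 0.00282, adjusted p = 0.0173 over 9 relations) and Spearman's rho 0.697 (permutation p = 0.00706, adjusted p = 0.0318). Without the 2 mice farthest from the median of chromosome 7, r was 0.643. Within slide 1 it was 0.990 (exact permutation p = 0.00556, n = 6 mice) and within slide 2 it was 0.687 (exact permutation p = 0.138, n = 6), so it did not pass on slide 2 alone. It no longer passed after the correction for base composition (r = 0.589, adjusted p = 0.233 by permutation), with centring on the autosomal mean (r = 0.660, adjusted p = 0.0556 by permutation) or without mouse 1109 (r = 0.688, adjusted p = 0.0918 by permutation).

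For chromosome 17 no relation with the other two passed across all mice. Its r was 0.064 with chromosome 7 (rho 0.288, adjusted p = 0.836 and 0.393 by permutation) and 0.234 with chromosome 11 (rho 0.486, adjusted p = 0.59 and 0.144 by permutation). Both values depended on mouse 2088, whose chromosome 17 was high, and on base composition. After the correction r was −0.493 and −0.419. Without mouse 2088 r was 0.610 with chromosome 7 (adjusted p = 0.042 by permutation) and 0.737 with chromosome 11 (adjusted p = 0.012).

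The slope of the ratio of the other autosomes on G and C content also differed between mice. It was set with its sign against the means of these chromosomes. Per percent of G and C it ran from −0.053 in the tumour of mouse 822 to 0.0041 in lesion 1 of mouse 608. A positive r therefore means that these chromosomes read lower where the ratio fell more steeply. The relation passed for chromosome 17 by both measures and for chromosome 11 by Pearson's r alone, and it did not pass for chromosome 7. Pearson's r with the slope was 0.587 for chromosome 7, 0.722 for chromosome 11 and 0.658 for chromosome 17 (permutation p adjusted over 9 relations 0.0623, 0.0173 and 0.0274). Spearman's rho was 0.560, 0.587 and 0.714 (adjusted p = 0.0903, 0.0903 and 0.0318 by permutation). The call of chromosome 11 was lost with normexp (adjusted p = 0.0613), with centring on the autosomal mean (0.0556), after the correction (0.768) and without mouse 1109 (0.101, all by permutation). That of chromosome 17 was lost with normexp (adjusted p = 0.193), with centring on the autosomal mean (0.0796), after the correction (0.529), without the dim arrays (0.0529) and without mouse 2097, 1109 or 822 (0.0772, 0.157 and 0.0521, all by permutation). Without the 2 farthest mice r was 0.524, 0.484 and 0.502. Within slide 1 r was 0.157, 0.063 and 0.647 and within slide 2 it was 0.551, 0.690 and 0.724 (6 mice each, exact permutation p from 0.0778 to 0.892), and none of these passed. With array noise, r was −0.242, 0.175 and 0.208, and none passed (adjusted permutation p from 0.59 to 0.623). With the authors' loess table chromosome 7 did pass (r = −0.731, adjusted p = 0.0081 by permutation).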

How the data were processed

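DNA of 21 tumours was hybridised against the common reference on 2-colour arrays. Per the file headers, Feature Extraction 11.0.1.1 gave background-subtracted, dye-normalised intensity values for both channels, and these were used as deposited. The authors also deposited log2 ratios after loess normalisation, a table that covered 11526 positions here (2112 on chromosomes 7, 11 and 17) and served as an alternative. The paper's methods for this assay are not given in the sources used here.

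Log2 ratios (tumour over reference) were centred on each array's median, without control spots and outlier flags, then averaged in 1-Mb windows with at least 5 positions on every array. Their match to the scanner's own log ratio was checked at a tolerance of 0.001. Positions are mm9. G and C content, annotation and gene density came from GRCm38 (RefSeq and GENCODE), where 96333 of 96471 sequences matched once (99.86%), and no coordinates were converted. The correction for base composition was a polynomial of degree 3 per array in the content of the oligonucleotide and of 50 kb.

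Chromosomes and windows were fitted with limma 3.58.1 in R 4.3.3, with group as a term, the mouse as a random block and Benjamini-Hochberg adjustment over all chromosomes or windows at 0.05. Shares were averaged per mouse and tested by exact sign-flip or exact permutation, two-sided. Correlations used 100000 resamples. Segments came from least-squares partitioning with a penalty factor of 3. Python 3.11.15, numpy 2.4.6, pandas 2.3.3 and scipy 1.17.1 were used, and the fits and segmentation were tested on simulated data. The labels do not name the animals, so the mouse was read from the leading number of a title.

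The members, gene lists and tests were chosen with earlier results of these data known. Per list, the lowest and highest gene and those with the largest SD over mice were named, with the lowest and highest window and that of smallest group p per chromosome and the segments of largest size times length. Fgf15, Tap1, Psmb8, H2-Ab1, Tnf, Cd37, Kcnq1, Cdkn1c, Phlda2, Peg3, Zim1, Ndn and Grb10 fall outside that rule or share a window with a gene inside it, and were added after their values were seen. Oligonucleotides are those on both designs nearest to their window's median, passing over untranslated regions. Alternatives changed the source of the ratio, background correction, dim positions, centring, base composition, designs, window size, thresholds, profile, block, slide and each mouse. The 2 arrays with under 85% of spots well above background, the squared correlation and the same-design profile were added after seeing the data. Genes that the files do not name were not analysed here. Some genes and windows are not reported here.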

Additional observations from a re-analysis of the deposited data

Results flagged for a closer look

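In 60 groups of 7 mice, the highest or lowest mouse was tested for standing apart from the others, and 6 did so. Chance alone would mark about 1 in 20 groups. Among anti-PD1 mice, mouse 2116 had 2.90% low windows on chromosomes 7, 11 and 17, where the others had 17.3 to 27.1%, and mouse 608 had 6.99% in gains beyond the profile, where the others had 0 to 2.58%. Among CD-HFD mice, mouse 1770 had 7.58% in such gains, where the others had 0. The dim arrays belong to mice 608 and 1770. In the lowest window of chromosome 11, mouse 822 had −0.49, where the rest ran from −0.31 to −0.20. In the window of Trp53 the same mouse, whose tumour was the only CD-HFD tumour of slide 3, had −0.35 against −0.26 to −0.20 in the rest. In the window of Nf1, mouse 2067 had 0.30, while the range of the rest was 0.20 to 0.24. No cause was tested.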

How the results depend on the processing

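Of 645 values for the comparisons under alternatives, 593 counted as kept and 21 reversed, and of 555 for single windows and relations, 497 were kept and 20 reversed. A test was kept with the same direction and side of the threshold. A count was kept within a set factor of its main value, and a share within its SD over mice. By this wide limit, common shares from 29.6 to 69.7% all counted as kept against 50.1%. For results that changed, the cause was not tested. Correction for base composition gave −0.039 on chromosome 7, 0.0066 on chromosome 11, 0.032 on chromosome 17 and a group difference of 0.00057 on chromosome 7 (0.00059 with centring on the autosomal mean). It gave 6.47% low windows, −2.16 points from the other autosomes, 32.8% of them also low in others, 5.84 points from the other autosomes, a common share 7.57 points above them, and r of 0.589, −0.493 and −0.419 for chromosomes 7 and 11, 7 and 17, and 11 and 17. Chromosome 17 was at −0.059 with the loess table, −0.051 with normexp and −0.041 by its median, and passed in all 3. Low windows numbered 26 at 5 Mb and 221 at 0.5 Mb, and high windows 20 at 5 Mb, 32 with the loess table and 49 on positions of both designs. The common share minus that of the other autosomes was −5.92 (loess), 10.5 (normexp), −0.650 (both designs), −10.6 (5 Mb) and −1.08 (same-design profile). The share of low windows was 31.5% (loess), 29.2% (both designs), 33.7% (threshold 0.1) and 7.98% (threshold 0.3), and of these 73.6% (both designs), 75.6% (5 Mb) and 34.9% (threshold 0.3) were low in others. Losses beyond the profile were 2.96% at 0.1 and 0.115% with the same-design profile, and −0.412 (normexp) and −2.72 points (both designs) against the other autosomes. Gains were 7.10% at 0.1, and their group difference was −3.30 (loess) and −6.62 (0.1).

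The relation of chromosomes 7 and 11 was 0.660 with centring on the autosomal mean, where it lost its call, and that of 7 and 17 was −0.057 (normexp), −0.118 (autosomal mean) and −0.014 (without the dim arrays). Relations with noise reversed for chromosome 11 (−0.451 with loess, −0.070 with normexp) and 17 (−0.232 with loess). Windows of Ccnd1 and Fgf15 (0.10), Cdkn1a (0.10), Fasn (0.061) and Lta (0.042) reversed with the correction, Egfr with loess (−0.11), Cebpa (−0.011) and Ccl2 (−0.0059) with normexp, Nf1 (−0.043), Cebpa (−0.011), Ccl2 (−0.018) and Airn (−0.033) at 5 Mb, Cdkn1a (0.078) and Airn (−0.028) at 0.5 Mb, Cdkn1a on both designs (0.14) and Airn on positions above background (−0.015). With each mouse left out, the group difference of chromosome 7 ran from −0.021 to 0.0069 (above 0 without mouse 1770 or 2067) and that of gains from −0.330 (without mouse 608) to 1.37. The relation of 7 and 11 ran from 0.688 to 0.908, of 7 and 17 from −0.114 to 0.610, of 11 and 17 from 0.0066 to 0.737, and of chromosome 7 with noise from −0.527 to 0.032. No paired analysis was possible because each mouse had only 1 treatment, and lesion numbers in the labels only name tumours within a mouse. Dim spots and the number of mice limit what can be detected.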

Other observations

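After the correction for base composition some windows lay well below 0, not all of which were low before it. Some of the lowest of each chromosome are given as values, chosen after they were seen. On chromosome 7 they began at 15000001 (corrected level −0.37), at 37000001 with Tshz3, a zinc finger transcription factor (−0.28), and at 69000001 with Magel2, Mkrn3 and Ndn of the imprinted Prader-Willi region (−0.26). On chromosome 17 they began at 18000001 with formyl peptide receptor genes (−0.31), at 67000001 with Ptprm, a receptor tyrosine phosphatase (−0.26), and at 7000001 with Rps6ka2, a kinase downstream of ERK (−0.22). The windows of Ptprm and Rps6ka2 were also low without the correction, below 0 in all 21 tumours. On chromosome 11 they began at 12000001 with Cobl and 52000001 with Tcf7 and Skp1a, both at −0.17. The window of Tcf7 had a mean of −0.49 on slide 1 and −0.12 on slides 2 and 3.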
